A study of Mus musculus with 60 samples.

Results

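Complement is a cascade of plasma and cell-surface proteins that tags particles for uptake and can open pores in membranes. In its classical pathway, the recognition protein C1q activates the paired serine proteases C1r and C1s, which cleave C4 and then C2, and the resulting enzyme cleaves C3. The alternative pathway amplifies C3 cleavage through factor B, and host cells carry membrane proteins that restrain it. Liver makes most of the circulating components, whereas C1q is made largely by macrophages and dendritic cells, so that complement RNA in a tumor cell library can belong to the tumor cell or to a host cell in the same well.

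The 9 genes described here are the complement genes other than C1q chosen from a fixed list by gene symbol: the classical pathway proteases C1ra and C1s1, the thioester components C3 and C4b, the alternative pathway protease Cfb, the C1 inhibitor gene Serping1, and the membrane regulators Cd55, Cd59a and Cd46. All 9 were among the 47729 mouse genes of the count table.

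The libraries were single PyMT-Bo1 cells, a mouse mammary tumor line that grows in bone, carrying Thy1.1, an H2B-mApple nuclear label and a Luc2-EGFP reporter. Cells were stained with DiD, a membrane dye that is diluted at each division, injected into the heart of female C57BL6/J mice aged 8 to 10 weeks, and recovered after 11 days from the femurs and tibias of 5 mice, pooled. After magnetic enrichment on Thy1.1 and exclusion of CD45+ and DAPI+ cells, 32 DiD+ cells (dye retained) and 28 DiD- cells (dye lost) gave libraries, 1 per well. No mouse is named for any cell, so a group counts as 1 sample and the groups were not tested against each other; intervals below are 95% and cover counting error only, and the reads carried no molecular identifiers.

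Counts on mouse genes ranged from 2276789 to 7794219 in DiD+ cells (median 4653711) and from 2624405 to 6199108 in DiD- cells (median 4440161). Levels are given in CPM, counts on mouse genes scaled to a total of 1000000, for single cells or for the counts summed over a group. Cd74, the invariant chain of MHC class II that macrophages and other antigen-presenting cells carry, had a count in 7 of the 60 cells, at 124 to 12721 counts, and none in the other 53, so any cut between 1 and 100 counts chose the same cells. These were the DiD+ cells 19, 21, 24, 30, 37 and 88 and the DiD- cell 84, numbered as in their labels. They held 10 to 13 of 13 macrophage or monocyte markers at 10 counts or more, with summed levels of 1361 to 19717 CPM in the 6 DiD+ cells and 1680 CPM in cell 84, although the sort excluded CD45+ cells. In the 53 cells without Cd74 the same 13 markers summed to at most 72.2 CPM (DiD+) and 63.1 CPM (DiD-), and Adgre1 (F4/80) was at 0 in all of them. Cell 30 stood apart as the 1 well of all 60 with 0 counts on the 4 transgenes, with 6 of 6 measured erythroid markers summing to 125719 CPM.

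Complement RNA of the 9 genes was mostly protease RNA. Of all counts on the 9 genes, 77.1% were on C1ra and 15.6% on C1s1, followed by Cd55 with 3.92% and Cd59a with 2.81%, while C3, C4b, Cfb and Cd46 together added little and Serping1 had no count. In 27 of the 60 cells none of the genes reached 10 counts, 26 cells held 1 of them, 6 held 2 and 1 held 3. In the 53 cells without Cd74, C1ra, C1s1, C4b and Cd46 reached 10 counts in at least 1 cell, whereas C3, Cd55 and Cd59a had no count at all. The map of the 9 genes over the 60 cells shows this split.

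**Figure D1:**
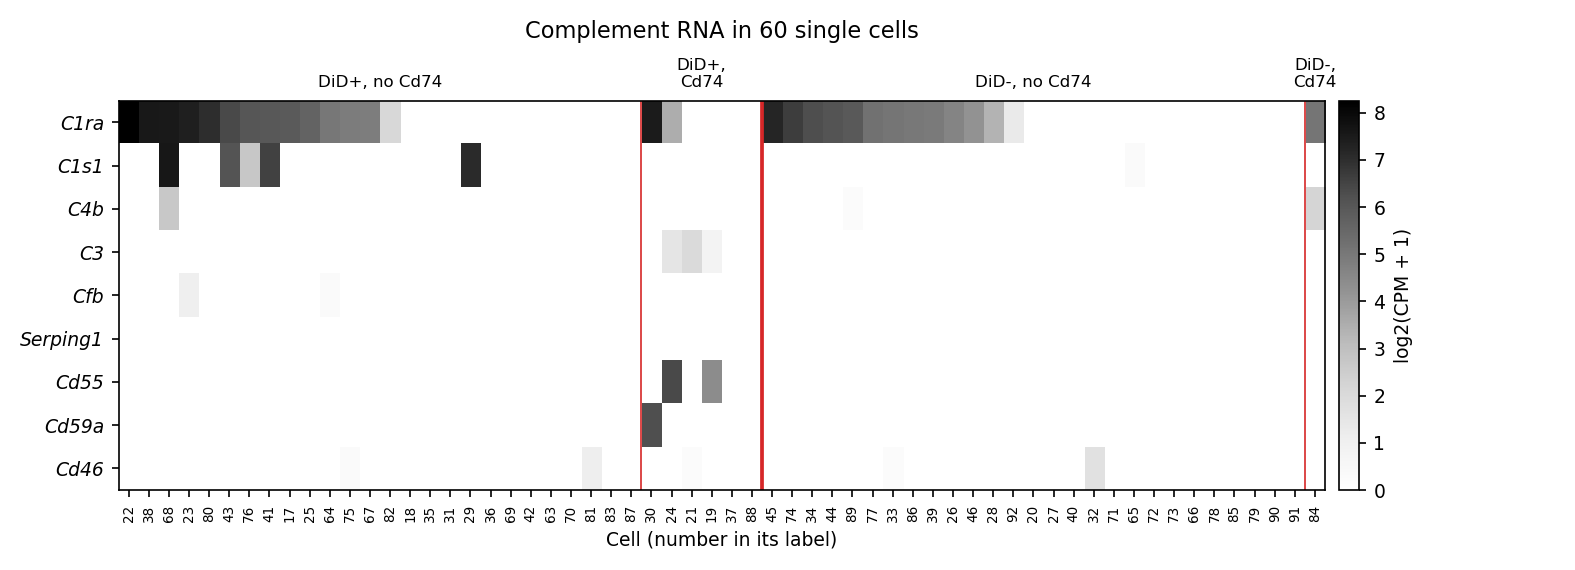
Each column is 1 cell, ordered within its group by C1ra, and each row 1 gene; shading gives log2(CPM + 1). C1ra fills 16 DiD+ and 13 DiD- columns at 10 counts or more, C1s1 is dark in DiD+ cells without Cd74, and Cd55, Cd59a and C3 are shaded in DiD+ cells with Cd74 alone.

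C1ra encodes mouse C1r, the protease that activates C1s, and was the most widely detected of the genes. It was present at 10 counts or more in 16 of 32 DiD+ cells and 13 of 28 DiD- cells, and at 0 in 16 and 14 cells. In only 1 cell, the DiD- cell 92, did it fall between these, with 4 counts. A cell therefore either had no C1ra count or, with that exception, at least 25 counts in the DiD+ and 53 in the DiD- group.

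Most C1ra lay in wells without macrophage RNA. Among DiD+ cells, 6351 of 7277 C1ra counts were in cells without Cd74, leaving 12.7% in the 6 Cd74 cells, which held 19.9% of all DiD+ counts. In the 26 DiD+ cells without Cd74 the level ranged from 0 to 304.6 CPM with a median of 15.6 CPM. In the 27 DiD- cells without Cd74 it ranged from 0 to 145.3 CPM with a median of 0. The groups overlapped up to 145.3 CPM. Above that lay DiD+ cells alone: cells 22 (304.6 CPM), 38 (187.3 CPM), 68 (184.1 CPM) and 23 (165.1 CPM) were higher than every DiD- cell, and the highest DiD- cells were 45 (145.3 CPM) and 74 (101.1 CPM).

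The groups differed in the level of C1ra in positive cells more than in the proportion of such cells. Without the Cd74 cells, 14 of 26 DiD+ cells (53.8%, Clopper-Pearson 33.4 to 73.4%) and 12 of 27 DiD- cells (44.4%, 25.5 to 64.7%) had 10 counts or more. The intervals are wide, and the difference was not tested. The median over these positive cells was 63.9 CPM in DiD+ and 34.2 CPM in DiD-. After thinning every cell to 2200000 counts, 13 and 12 cells remained positive.

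Over summed counts, C1ra without the Cd74 wells reached 54.3 CPM (exact Poisson 52.985 to 55.7) in the DiD+ group and 22.5 CPM (21.7 to 23.4) in the DiD- group, a ratio of 2.41, or 1.23 on the log2(CPM + 1) scale. With all cells the levels were 49.8 and 22.8 CPM, a log2 ratio of 1.10. The size of this difference rested on few cells. Without cell 22, which held 28.6% of the DiD+ counts outside the Cd74 wells, the log2 ratio dropped to 0.83, under 2-fold, and without the DiD- cell 45 it was 1.55. It also depended on the scale: with each cell scaled to its spike-in RNA, the log2 ratio was 0.55 without and 0.37 with the Cd74 cells, while the median of all genes shifted by -0.28 and -0.37, and the mean of the authors' BASiCS values over all cells gave 0.97.

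The C1ra-positive wells carried tumor RNA. Transgene counts ranged from 63 to 1446 in the 14 DiD+ and from 185 to 1512 in the 12 DiD- cells without Cd74, and every one of them had at least 1215 counts of Krt8, a luminal keratin. Krt8 did not set these wells apart. All cells without Cd74 held it, at 572 counts or more in DiD+ and 1399 or more in DiD-. The Cd74 cell 30, with 0 transgene counts, held 9970. The epithelial markers Krt7, Krt19 and Epcam had no count in any cell. Macrophage or monocyte markers summed to at most 30.7 CPM and 22.9 CPM in these cells. Up to 6 of 11 mesenchymal stromal markers were present in a C1ra-positive DiD+ cell and up to 4 in a DiD- cell, at a median of 2.5 and 2. Of that list, Cxcl12 reached 10 counts in 22 of 26 DiD+ and 23 of 27 DiD- cells without Cd74. Dcn reached 10 counts in 4 of these DiD+ cells and 0 of these DiD- cells, Col1a1 in 3 and 0, and Pdgfra in 5 and 3. Ogn, which the study named as higher in DiD+ cells, did so in 12 and 2. The rest gave 11 and 12 (Col3a1), 10 and 8 (Fbln1), 3 and 3 (Col6a3), 1 and 1 (Col1a2) and 0 and 1 (Lepr). Lum had no count. Whether these markers come from tumor or host cells, and their part in the result, was not tested.

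C1s1 encodes the mouse C1s protease, the substrate of C1r and the enzyme that cleaves C4 and C2. Unlike C1ra it was found almost wholly in DiD+ cells: 2020 counts lay in 5 DiD+ cells, and the DiD- group held 1 count, in cell 65. The positive cells were 68 with 192.8 CPM, 29 with 133.9 CPM, 41 with 93.7 CPM, 43 with 67.7 CPM and 76 with 5.61 CPM, and the other 27 DiD+ cells were at 0. None of the 5 had a Cd74 count, so leaving out the Cd74 wells removed no C1s1 count.

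The share of DiD+ cells without Cd74 that held C1s1 was 19.2% (Clopper-Pearson 6.55 to 39.4%), against 0 of 27 DiD- cells (0 to 12.8%). The intervals cover counting error only, and the difference was not tested. The summed level was 17.3 CPM (exact Poisson 16.5 to 18.0) against 0.0086 CPM in DiD-. With 1 count in the denominator the ratio of 2017 has a counting interval from 362 to 79692, and the log2(CPM + 1) ratio was 4.18. Leaving out cell 68, with 35.2% of the counts, gave 3.64, and spike-in scaling gave 3.50.

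**Figure D2:**
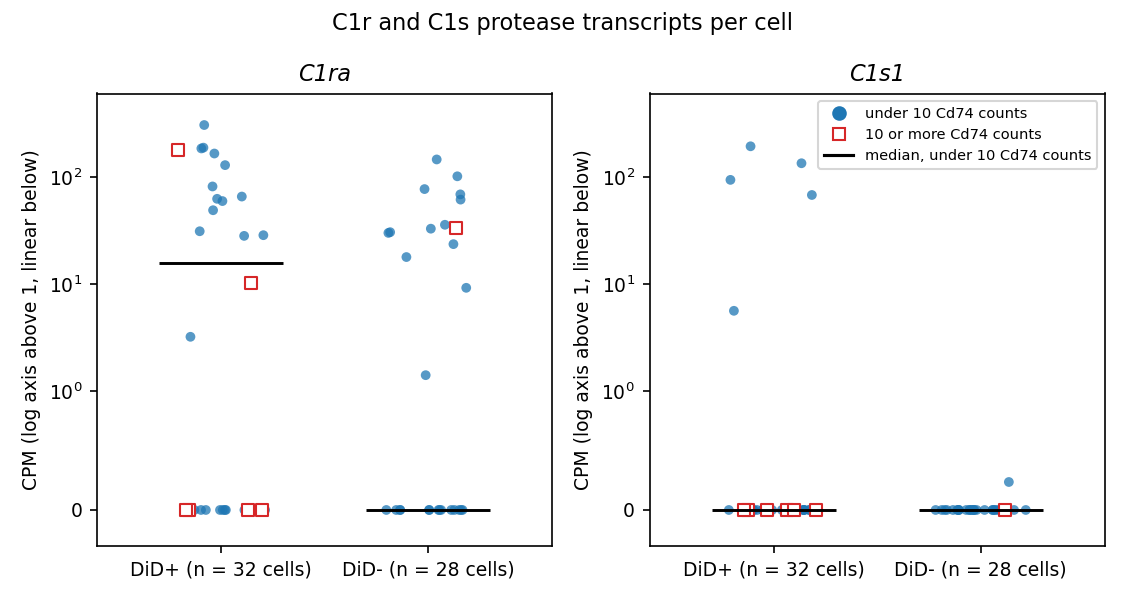
Each symbol is 1 cell, with the gene's CPM on an axis that is logarithmic above 1 and linear below, open squares for cells with 10 or more Cd74 counts, and a bar at the median of the others. C1ra-positive cells occur in both groups up to 304.6 CPM in DiD+ and 145.3 CPM in DiD-, whereas C1s1 is above 1 CPM in 5 DiD+ cells.

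Both proteases are needed for a working C1 complex. Of the 5 C1s1-positive cells, 4 were also C1ra-positive, as were 14 of all 26 DiD+ cells without Cd74. The exception was cell 29, with 133.9 CPM of C1s1 and no C1ra count. Over the 26 cells r between log2(CPM + 1) of the genes was 0.26, and whether they go together was not tested. Conversely 10 of the 14 C1ra-positive DiD+ cells without Cd74 and all 12 such DiD- cells lacked C1s1. Cell 68 was high in both, at 184.1 CPM of C1ra and 192.8 CPM of C1s1. Per kilobase of merged exons, C1ra summed to 18.2 and C1s1 to 5.52 CPM per kb in DiD+ cells without Cd74.

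The wells with C1s1 differed among themselves in other markers. Transgene counts were 197 to 1446 and macrophage or monocyte markers summed to at most 8.86 CPM. Cell 41 held 6 of 11 mesenchymal stromal markers at a summed 4196 CPM, the highest such sum in cells without Cd74, and cell 68 held 4 at 1821 CPM, whereas cell 43 held none at 10 counts. Cell 29 held 4 of 5 megakaryocyte or platelet markers, at a summed 29.5 CPM. Krt8 was at 329.5 to 840.0 CPM in the 5 cells. The 7 epithelial markers summed to 330 to 1587 CPM there, against a median of 2132 CPM in the 21 C1s1-negative DiD+ cells without Cd74. That sum was nearly all Krt8 and Krt18. Krt19, Krt7 and Epcam had no count, Cdh1 at most 1 and Cldn7 at most 39 in a cell. The part of these marker sets in the C1s1 values was not tested.

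C1ra and C1s1 are neighbors on mouse chromosome 6. In GRCm38 with GENCODE annotation, C1ra (ENSMUSG00000055172) spans chr6:124512405-124523443 on the plus strand with 11 merged exons, and C1s1 (ENSMUSG00000038521) spans chr6:124530345-124542359 on the minus strand with 12, so that the genes face each other across 6901 bases. The 250 bases before the start of each are shown because these are the 2 genes of the set that reached 1 CPM over a group without the Cd74 cells. RefSeq sequence (GRCm38.p6) was searched on both strands. The motifs given here are TTTCNNTTT (the core of the interferon-stimulated response element), GGGNNTTTC (an NF-kB core) and TTGCNNAA (C/EBP), with matches in capitals.

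C1ra, chr6:124512371-124512620, plus strand: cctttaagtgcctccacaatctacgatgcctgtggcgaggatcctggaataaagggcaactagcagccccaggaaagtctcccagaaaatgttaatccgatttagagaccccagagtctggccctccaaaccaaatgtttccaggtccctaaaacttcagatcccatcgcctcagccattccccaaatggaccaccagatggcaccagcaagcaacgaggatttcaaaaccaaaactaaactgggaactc
C1s1, chr6:124542360-124542609, minus strand: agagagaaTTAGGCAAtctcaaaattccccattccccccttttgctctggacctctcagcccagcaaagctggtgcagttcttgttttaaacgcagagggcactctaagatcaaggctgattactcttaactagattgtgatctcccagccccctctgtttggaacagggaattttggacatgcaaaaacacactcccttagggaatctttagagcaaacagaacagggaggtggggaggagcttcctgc

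The C1ra window held no match, and GENCODE places the first base of C1ra inside that window. The C1s1 window held 1 C/EBP match, 242 to 235 bases before the start; a second RefSeq start of C1s1 lies downstream and its window held none. Over 32851 RefSeq windows of 250 bases, 9.37% held the core of the interferon-stimulated response element, 3.72% the NF-kB core and 9.56% the C/EBP letters. A match is a run of letters and not a bound site, and its absence says nothing of a factor.

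C1r and C1s are known to be inducible by interferons and by acute phase cytokines. In DiD+ cells without Cd74, 19 interferon-response genes summed to a median of 883 CPM (407 to 15798) in the 14 C1ra-positive and 385 CPM (99.6 to 2308) in the 12 C1ra-negative cells. In DiD- cells the medians were 387 CPM in 12 positive and 352 CPM in 15 negative cells. Across cells Pearson's r between log2(CPM + 1) of C1ra and of the summed list was 0.59 over the 26 DiD+ cells, between 0.56 and 0.68 with any 1 cell left out, and 0.10 over the 27 DiD- cells. These cells come from 1 pool and the values are a description.

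For C1s1, r with the interferon sum depended on 1 cell. It was 0.52 over the 26 DiD+ cells and 0.27 without cell 68, which had the highest interferon sum of all 60 cells at 15798 CPM. With 15 acute phase and NF-kB genes r over the 26 DiD+ cells was 0.57 for C1s1, and 0.46 without cell 29, and 0.31 for C1ra. Over the 27 DiD- cells without Cd74 it was -0.0008 for C1ra. With 8 genes the study had chosen on these libraries as high in DiD+ cells, among them Gas6, Postn and Mgp, r was 0.61 for C1s1 and 0.45 for C1ra. Over the 27 DiD- cells it was 0.11 for C1ra. Negative values of similar size were also found: over the 26 DiD+ cells r of C1s1 was -0.47 with the epithelial sum and -0.54 with C1qbp.

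Of 10144 genes with 10 counts or more in at least 10 of the 53 cells without Cd74, those whose log2(CPM + 1) ran most like that of C1ra were Gatad2b (r = 0.55), Galnt15 (r = 0.53) and Mrpl27 (r = 0.49). All were modest correlations, the highest picked from that many genes over 53 cells of the same pool. Whether unrelated genes would reach such values was not tested. C1s1 and the other genes were in too few cells for this comparison.

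C3, the component on which all pathways converge, was nearly absent. Its 27 counts lay in 3 DiD+ cells with Cd74, at 2.99 CPM in cell 21, 1.87 CPM in cell 24 and 0.72 CPM in cell 19. No count was found in any DiD- cell or in the 26 DiD+ cells without Cd74, where 0 counts allow at most 0.026 CPM over the group (3 counts of the total). Over all cells the DiD+ level of C3 was 7.36 times the limit set by 0 counts in DiD-, a value resting on those 3 wells. The counting error of the DiD+ level is not part of it.

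C4b, the substrate of C1s, reached 10 counts in 1 well without Cd74, and that well held both proteases. Cell 68 held 20 counts (5.42 CPM), the DiD- Cd74 cell 84 held 10 (3.63 CPM) and the DiD- cell 89 held 1. Cell 68 was thus the 1 cell in which 3 of the genes reached 10 counts. The groups were at 0.14 and 0.092 CPM over all cells, a log2 ratio of 0.06 that turned to -0.13 without cell 68. Its near-identical copy C4a had no count, and after thinning to 2200000 counts no cell kept 10 C4b counts.

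Cfb, the catalytic subunit of the alternative pathway convertase, had 4 counts in cell 23 (1.05 CPM) and 1 in cell 64, both C1ra-positive DiD+ cells without Cd74. No DiD- cell had a count. On chromosome 17, 2246 of its 2825 merged exon bases are shared with the readthrough gene Gm20547, which had 0 counts. Serping1, the inhibitor of C1r and C1s, had no count in any of the 60 cells, which allows at most 0.011 CPM over all of them, including the 29 cells with C1ra.

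None of the 3 membrane regulators exceeded 2.27 CPM in a cell outside the Cd74 wells. Cd55 (decay-accelerating factor, which dissociates C3 convertases) had 508 counts, of which cell 24 held 396 (82.4 CPM) and cell 19 held 112 (20.04 CPM). Both are DiD+ cells with Cd74, and all other cells were at 0. Over all cells the DiD+ level of Cd55 was 139 times the limit set by 0 counts in DiD-. Its log2 ratio was 2.16, which dropped to 0.84 without cell 24. Without the Cd74 cells no count was left in either group, so no ratio is given.

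Cd59a (protectin, which blocks the membrane attack complex) had 365 counts, all in cell 30 at 73.9 CPM. That is the well with no transgene count and with erythroid RNA, and it also held 9970 counts of Krt8 (2018 CPM) and 877 of C1ra. The wells of Cd55, cells 24 and 19, held 852 and 552 transgene counts. Over all cells the DiD+ level of Cd59a was 99.5 times the limit set by 0 counts in DiD-, with a log2 ratio of 1.81. Without cell 30 Cd59a was at 0 in both groups. Cd55 and Cd59a each have a related neighboring gene, Cd55b and Cd59b, and these had no count.

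Cd46 (membrane cofactor protein, in mouse largely a testis protein) had 12 counts in the DiD- cell 32 (2.27 CPM), 4 in the DiD+ cell 81 (1.14 CPM) and 1 each in cells 75, 21 and 33. Its summed level was 0.041 CPM in DiD+ and 0.11 CPM in DiD-, a ratio of 0.38 whose counting interval, 0.12 to 1.06, spans 1. Its log2 ratio was -0.09 and turned to 0.05 without cell 32. Its exons overlap a gene on the other strand, A330023F24Rik, which had counts in cell 22 alone, where Cd46 had none.

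Read against all genes, 4 of the 9 reached 1 CPM in a group over all cells (C1ra, C1s1, Cd55 and Cd59a), and all 4 were at least 2-fold higher in DiD+ with a median log2 ratio of 1.98, where 12.1% of 12432 genes were that much higher and 4.86% lower and the median was 0.04. A gene found in 1 group alone had to differ, and C1s1 (but for 1 count), Cd55 and Cd59a were found in DiD+ alone. C1ra alone reached 1 CPM in both groups, so the 4 of 4 is a count of those that reached 1 CPM. Without the Cd74 cells 2 of the 9 reached it, C1ra and C1s1, both at least 2-fold higher with a median of 2.71, where 10.4% of 12153 genes were higher and 5.71% lower. C1s1 passed through DiD+ alone, at 17.3 against 0.0086 CPM, so its 2-fold difference nearly followed from that minimum. The median is over these 2 genes. Without cell 22 the count was 1. Of the CPM of the 9 genes summed over DiD+ cells, 16.4% lay in the 6 Cd74 cells, and 5.93% without cell 30.

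Other complement genes were counted in the same cells. Of 41 listed, 16 reached 1 CPM over all cells, with a median log2 ratio of 1.48. Of the 16, 9 were at least 2-fold higher and 1 at least 2-fold lower in DiD+, against 12.1% and 4.86% of all genes. Some had counts in 1 group alone, so that their difference followed from the minimum: C5ar1 and Itgam in DiD+ and Vsig4 in DiD-. Without the Cd74 cells 10 reached 1 CPM, 2 higher and 2 lower, against 10.4% and 5.71% of all genes, and the median was 0.25. Among these, C8g reached 1 CPM in DiD+ alone and C3ar1 in DiD- alone. Each comparison uses the same cells apart from the 7 wells, so the values are given side by side.

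**Figure D3:**
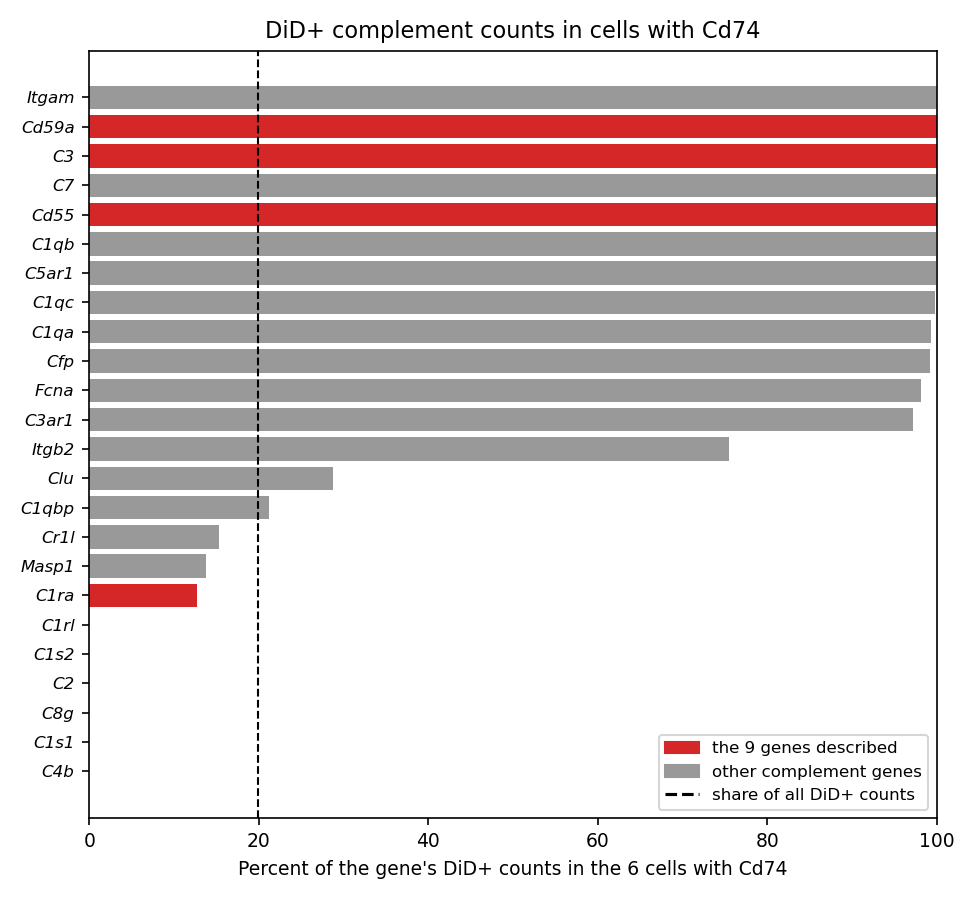
Bars give the percent of each gene's DiD+ counts that lay in the 6 DiD+ cells with Cd74, for complement genes with at least 10 DiD+ counts, and the dashed line gives their share of all DiD+ counts, 19.9%. Cd55, Cd59a and C3 stand at 100% beside C1q and properdin, whereas C1ra is at 12.7% and C1s1 and C4b are at 0%.

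Several recognition molecules and phagocyte genes had most of their DiD+ counts in the Cd74 wells. C1qa, a chain of C1q, summed to 157.9 and 4.89 CPM over the DiD+ and DiD- cells, and to 1.34 and 0.93 CPM without the Cd74 wells. Of the DiD+ counts, 99.3% of C1qa, 99.2% of Cfp (properdin, the stabilizer of the alternative convertase) and 98.2% of Fcna (ficolin A) lay in the 6 Cd74 cells. The anaphylatoxin receptor gene C5ar1 was at 99.9% and the integrin Itgam, of complement receptor 3, at 100%. Others did not follow: all 83 counts of the collectin Colec11 lay in the DiD- cell 65, which had no Cd74, and 890 of 3627 DiD+ and 1972 of 1973 DiD- counts of Itgb2 and all 246 DiD- counts of C3ar1 lay outside the Cd74 wells. Cfd, the alternative pathway protease factor D, and Vsig4, a C3b receptor of macrophages, were found in the Cd74 cell 84 alone, with 46 and 234 counts.

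Masp1 and C1rl had most of their counts outside the Cd74 wells. Masp1, the lectin pathway protease, summed to 15.5 CPM over the DiD+ and 4.57 CPM over the DiD- cells without Cd74. The log2 ratio was 1.57, at the lowest 1.22 without cell 68 and at the highest 1.82 without cell 85. Its highest cell was again cell 68, at 123.1 CPM, and the Cd74 wells held 13.8% of its DiD+ and 10.7% of its DiD- counts. C1rl, a C1r-like protease, was at 6.35 and 3.79 CPM, a log2 ratio of 0.62. The related genes C1rb and C1s2 had 3 and 15 counts in all, so few reads had been assigned to them.

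C8g, the small chain of terminal component C8, reached 10 counts in 6 of 26 DiD+ and 0 of 27 DiD- cells without Cd74, with summed levels of 5.88 and 0.060 CPM and a log2 ratio of 2.70. Over all cells the levels were 4.71 and 0.87 CPM and the log2 ratio 1.61, with 97 of the 104 DiD- counts in the Cd74 cell 84. C8a and C8b, the other chains, had no count, nor did Hc (C5), C6 or C9. C3ar1, the C3a receptor, and Itgb2, the common chain of leukocyte integrins, were at least 2-fold lower in DiD+ without the Cd74 cells, with log2 ratios of -1.44 and -1.06. The C3ar1 ratio rested on the DiD- cell 27, without which it was -0.20. Itgb2 had 100 counts or more in 6 DiD- cells. Its ratio was -0.39 without the DiD- cell 79 and -2.04 without the DiD+ cell 25.

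Of the other regulators, Cr1l, Clu and C1qbp were broadly present in both groups, whereas Cfi, Vtn, C4bp, Susd4, Cd55b and Cd59b had no count. Cr1l encodes Crry, the rodent membrane regulator that inhibits C3 convertases, and had 10 counts in 25 of 26 DiD+ and 27 of 27 DiD- cells without Cd74, at 81.97 and 69.9 CPM. The log2 ratio was 0.23. Clusterin (Clu), a fluid-phase inhibitor of the terminal complex, was in all 60 cells, and without the Cd74 wells its levels were 1107 CPM in the DiD+ and 1454 CPM in the DiD- group, a log2 ratio of -0.39. C1qbp, a mitochondrial protein that can bind C1q, was in all cells at 256.9 and 280.5 CPM.

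**Figure D4:**
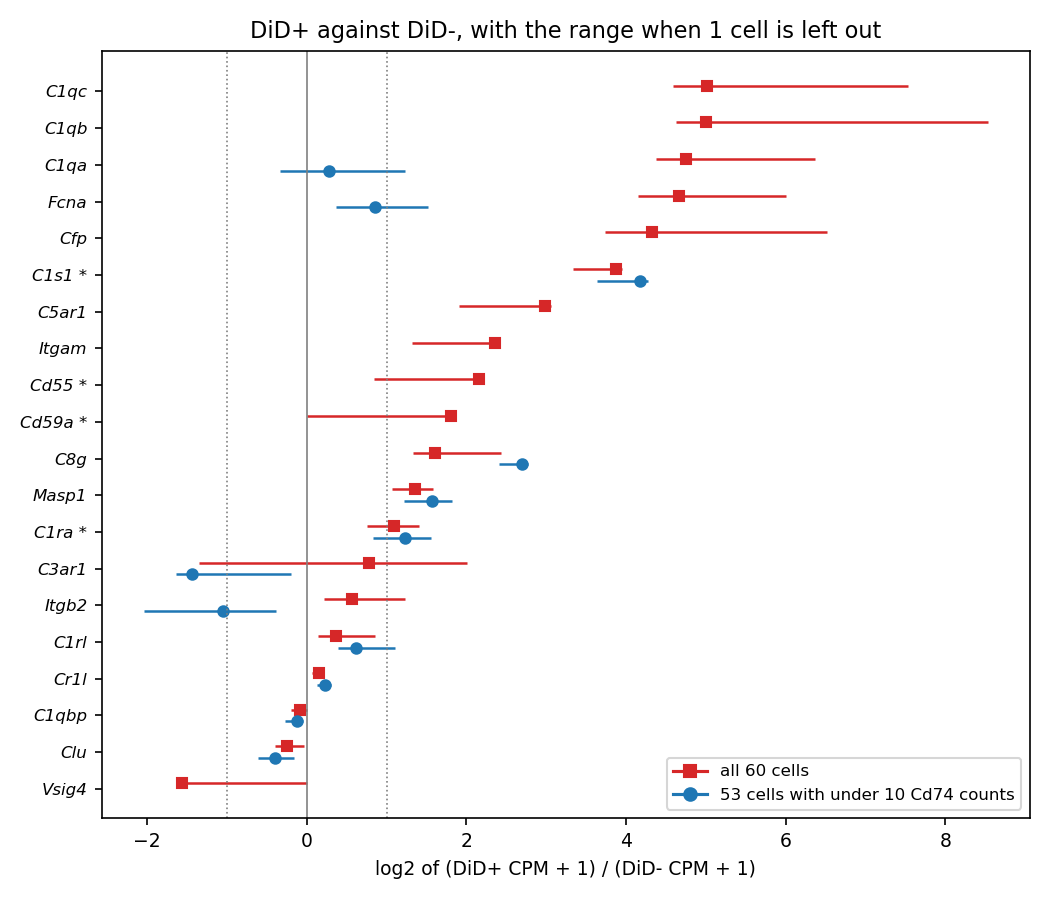
For each complement gene at 1 CPM or more in a group, squares give the log2 ratio of DiD+ over DiD- (CPM + 1) over all 60 cells, circles that over the 53 cells without Cd74, and lines the range when any 1 cell is left out; asterisks mark genes of the set of 9, and dotted lines 2-fold. C1q, Cfp, Cd55 and Cd59a lose their ratio or fall under 1 CPM without the Cd74 cells, while C1s1 stands at 4.18 and C1ra at 1.23.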

How the data were processed

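The authors aligned SMARTer single-cell reads to GRCm38/mm10 with STAR and deposited RSEM expected counts (estimated counts per gene) for 47825 entries: 47729 mouse genes, 92 ERCC spike-ins and 4 transgenes. They also deposited BASiCS-normalized signal for 14013 entries, of which 4 of the 9 genes are part. Tool versions are not given in the sources used here. No column was left unused.

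Estimated counts (96.6% whole) were rounded. CPM used mouse genes only. CPM scaled counts to 1000000 per cell or group. Group levels came from summed counts, with exact Poisson intervals, and shares of cells had Clopper-Pearson intervals (95%); for 0 counts the limit was 3 counts over the group. Ratios were log2 of (CPM + 1), over genes at 1 CPM or more in a group, and genes at least 2-fold apart were counted. Wells with 10 or more Cd74 counts were set aside in each comparison, no doublet caller was run, and each library was 1 well, without shared barcodes. A group was 1 sample, so no test between groups was made.

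The genes and lists were chosen with earlier results of these data known. All 9 genes and the fixed lists were named, with the highest cells and the 3 genes most like C1ra. Positions and exons came from GENCODE for GRCm38. On simulated counts for all cells, 96.5% of 200 changed genes lay within 0.2 of the true log2 ratio. The simulation drew Poisson counts without spread between cells and changed only genes at 10 CPM or more. It thus checks the calculation and not the error of genes that, like C1ra, are at 0 in many cells. Python 3.11.15, numpy 2.4.6, pandas 2.3.3, scipy 1.17.1, R 4.3.3, edgeR 4.0.16 (TMM factors) and DESeq2 1.42.0 (size factors) were used. Alternatives were other scalings, pseudocounts, minimum levels and definitions of the wells set aside, and leaving out each cell. Items withheld from reporting are not reported here.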

Additional observations from a re-analysis of the deposited data

How the results depend on the processing

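The values below and the ratios of C1ra, C1s1, Cd55 and Cd59a did not change sign in the alternatives that were run, although some came to 0; of these ratios and the shares of positive cells, 66 moved beyond their counting interval and 414 did not. For the genes of the set at 1 CPM or more, the median log2 ratio of 1.98 over all cells was 1.61 with spike-in scaling, 4.93 and 0.65 with pseudocounts of 0.1 and 10 CPM, 0.24 with no minimum level and 2.49 with a minimum of 10 CPM. The median of 2.71 without the Cd74 cells was 2.02 with spike-in scaling, 4.29 and 1.22 with those pseudocounts and 0.00 with no minimum, which adds 4 genes at 0 in both groups and 3 at a few counts. The count of 2 genes at least 2-fold higher without the Cd74 cells was 1 with spike-in scaling and 1 with a pseudocount of 10 CPM. The share of 16.4% in the Cd74 cells was 23.5% once cells with erythroid or stromal markers were counted with them. With any 1 cell left out these ranged from 1.84 to 2.20, from 2.38 to 2.87, from 1 to 2 and from 5.93 to 19.8%; the lowest share was without cell 30 and the count of 1 without cell 22. Means over cells, BASiCS values, TMM and DESeq2 factors moved none of the medians or the count beyond their counting interval. The 7 wells set aside were the same for Cd74 minimums of 1, 10 and 100 counts and for 7 or more of 13 macrophage markers. No paired analysis was possible because the cells carry no number shared between the groups and no mouse is named. Depth limits what can be said of the genes at 0.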
